A study of Mus musculus with 15 samples.

Results

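The genes described here are 31 chemokine receptors, integrins and other genes that guide lymphocytes into, within and out of tissues, taken by name from a fixed list of mouse symbols. All 31 were found among the 22797 genes counted, and all 31 passed the filter on low counts. They comprise 15 chemokine receptors, 6 integrin chains, 1 selectin ligand, 3 sphingosine 1-phosphate receptors, 4 oxysterol, lipid or orphan receptors and 2 genes that control retention and egress. Their RNA was counted in ILC2 and ILC3, the group 2 and group 3 members of the innate lymphoid cells, which are lymphocytes that lack rearranged antigen receptors. The cells came from the small intestine of female mice at zeitgeber times 4, 10, 16 and 23 (ZT, hours after the cue that starts the animals' day). The series holds 7 ILC2 libraries (2 each at ZT4, ZT10 and ZT23, and 1 at ZT16) and 8 ILC3 libraries (2 at each time). The labels name no strain, genotype, age, drug or diet.

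Chemokine receptors are G-protein coupled receptors that turn a cell towards the source of a chemokine, and integrins are paired surface chains that hold the cell to vessel walls, matrix or epithelium. In the small intestine, the receptor encoded by Ccr9 reads the epithelial chemokine of that organ, the pair encoded by Itga4 and Itgb7 binds the addressin of gut venules, and the pair encoded by Itgae and Itgb7 binds E-cadherin on epithelium. The sphingosine 1-phosphate receptor encoded by S1pr1 draws lymphocytes back to lymph and blood, and the surface protein CD69 counters it.

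Suspensions from 6 mice were pooled at each time before sorting, and whether both libraries of 1 group stem from separate pools is not stated in the labels, so p-values may reflect technical spread alone. Every ILC2 library carries batch 1 in the labels and every ILC3 library batch 2, so an effect of batch cannot be told apart from one of cell type. Depth was 4016298 to 18538315 counts per ILC2 library and 5903163 to 24794403 per ILC3 library. The ILC2 label held against a defining gene: Gata3, the factor ILC2 depend on, lay between 302 and 665 CPM (counts scaled to 1000000 per library and for library composition) in ILC2 and between 15.1 and 53.0 in ILC3. All 10 ILC2 markers were lower in ILC3 and 8 of 10 ILC3 markers were higher. Markers of other cell types were also counted, with 1 of 10 epithelial markers higher in ILC3 and, of 10 stromal and endothelial markers, 1 higher and 3 lower. Summed plasma and B cell markers reached 18883 to 192600 CPM in ILC2 and 403 to 4360 CPM in ILC3, and Jchain, the joining chain of secreted antibodies, alone ran from 18103 to 188346 CPM in ILC2. In bulk RNA, fewer cells of a type and less RNA per cell cannot be told apart.

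The promoters of Ccr4, Ccr8 and Ccr6, 3 genes with a wide gap between the cell types for which RefSeq held a window, are shown first, because GATA factors and nuclear receptors bind short DNA words and the letters show where those words stand. RefSeq tables (GRCm38.p6, the same build as mm10) held a window for 22 of the 31 genes. Each sequence is the 250 bases before a RefSeq start, 5′ to 3′ on the gene's strand. Capitals mark a GATA word (AGATAA or TGATAA, either strand) or the word AGGTCA that nuclear receptors read (either strand).
Ccr4: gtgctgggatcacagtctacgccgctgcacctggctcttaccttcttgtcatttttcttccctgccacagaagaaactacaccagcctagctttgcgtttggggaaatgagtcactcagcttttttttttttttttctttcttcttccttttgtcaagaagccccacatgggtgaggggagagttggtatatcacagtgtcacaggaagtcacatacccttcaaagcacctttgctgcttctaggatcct
Ccr8: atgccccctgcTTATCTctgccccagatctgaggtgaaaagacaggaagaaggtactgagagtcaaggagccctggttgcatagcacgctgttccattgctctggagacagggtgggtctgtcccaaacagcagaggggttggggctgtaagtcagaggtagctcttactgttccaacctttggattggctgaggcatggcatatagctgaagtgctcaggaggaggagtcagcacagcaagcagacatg
Ccr6, first start: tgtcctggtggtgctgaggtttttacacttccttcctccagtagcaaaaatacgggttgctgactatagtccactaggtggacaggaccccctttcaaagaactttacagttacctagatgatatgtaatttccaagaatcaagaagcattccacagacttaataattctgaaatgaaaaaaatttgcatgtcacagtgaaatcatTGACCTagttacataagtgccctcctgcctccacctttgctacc
Ccr6, second start: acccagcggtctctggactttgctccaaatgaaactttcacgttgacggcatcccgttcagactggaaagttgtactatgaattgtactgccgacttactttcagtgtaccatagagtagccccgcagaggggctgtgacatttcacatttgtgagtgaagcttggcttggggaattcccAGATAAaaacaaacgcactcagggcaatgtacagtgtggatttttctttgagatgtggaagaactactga
The Ccr8 window is chr9:120091883-120092132 on the plus strand and holds 1 GATA word, on the minus strand, 239 bases before the start. The Ccr4 window is chr9:114496545-114496794 on the minus strand, before a start inside the gene's span, and holds none of these words. The first Ccr6 window is chr17:8235793-8236042 on the plus strand and holds 1 AGGTCA word, on the minus strand, 44 bases before the start. The second Ccr6 window, chr17:8242276-8242525, lies before another start of the gene and holds 1 GATA word 70 bases before that start. A GATA word stands in 16.6% of all 32851 such windows and in those of 5 of the 22 genes (Ccr2, Ccr3, Ccr6, Ccr8 and Xcr1). AGGTCA stands in 14.02% of all windows and in that of 1 of the 22 (Ccr6). The clock's E-box CACGTG, a palindrome, stands in 6.02% of all windows and in that of 1 of the 22 (Xcr1). These are matches of letters, not binding sites.

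The first comparison asked which homing genes differ between the cell types when the 4 times are averaged, ILC3 minus ILC2. ILC3 carried more RNA for the receptors of lymphoid follicles and cryptopatches, Ccr6 and Cxcr5, and for the epithelial integrin chain Itgae. ILC2 carried more for Ccr4, Ccr8 and Ccr10, for the integrin chain Itgal, for the sphingosine 1-phosphate receptor S1pr4 and for the egress gene Klf2. Of the 31 genes, 21 passed the test (67.7%; edgeR quasi-likelihood, adjusted p under 0.05), against 27.1% of all 15339 genes tested. The list was chosen with earlier results of these data known. The shares, here and at each time, therefore describe the 31 genes and cannot test whether homing genes differ more than others. There were 10 higher in ILC3 (32.3%, against 15.1% of all genes) and 11 lower (35.5%, against 12%). When counts were scaled by library size alone, the split was 12 higher and 10 lower, and that of all genes moved from 2318 higher and 1839 lower to 2981 and 1317, with the median of all genes shifting from 0.11 to 0.26 on the log2 scale. The median absolute log2 fold change of the 31 genes was 1.34, against 0.48 for all genes, and their median with sign was 0.16 against 0.11. The 7 ILC2 and 8 ILC3 libraries did not overlap for 12 of the genes (38.7%), against 12.1% of all genes: 4 lay wholly higher in ILC3 (against 6.51%) and 8 wholly lower (against 5.57%).

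**Figure D1:**
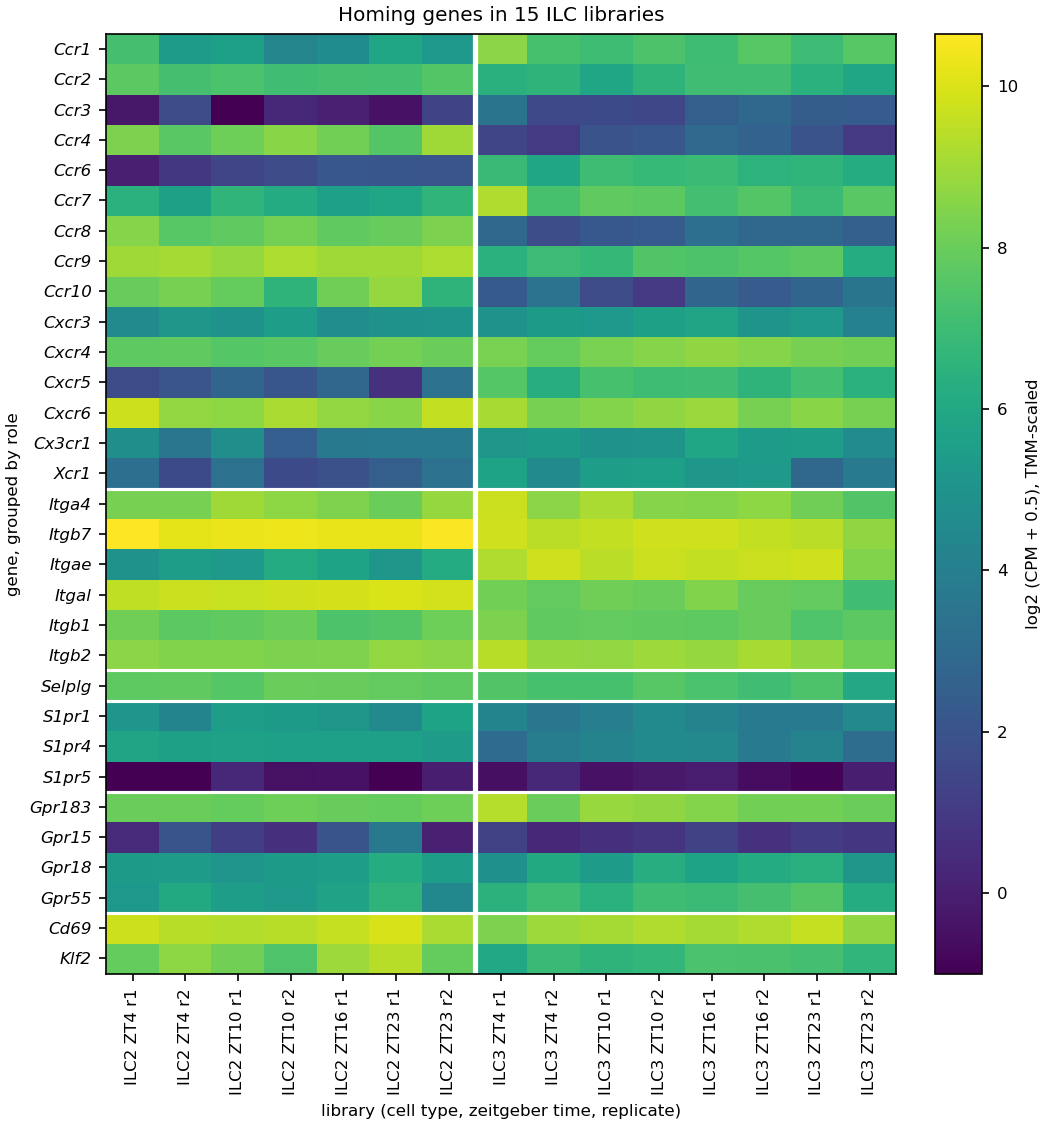
Level of each of the 31 genes (rows, grouped by role) in each of the 15 libraries (columns, ILC2 left and ILC3 right of the white line), as log2 of CPM plus 0.5. Ccr4, Ccr8 and Ccr10 are bright in ILC2 and dark in ILC3, and Ccr6, Cxcr5 and Itgae are the reverse.

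Among the chemokine receptors, 8 of 15 were higher in ILC3, 5 were lower and 2 did not pass the test. Ccr4, the receptor for Ccl17 and Ccl22 known from type 2 lymphocytes, had the widest gap of the 31. Ccr4 (Entrez 12773; chromosome 9, 114490316 to 114505476) ran from 187 to 502 CPM in ILC2 with a median of 291, and from 1.43 to 7.42 CPM in ILC3 with a median of 3.45. Its lowest ILC2 library thus stood far above its highest ILC3 library, and the log2 fold change was -6.57 ± 0.30 (SE; adjusted p = 9.65e-08), a fitted 95.0-fold. Ccr8, the receptor for Ccl1, followed the same pattern. Ccr8 (Entrez 12776; chromosome 9, 120092133 to 120094906) ran from 199 to 368 CPM in ILC2 (median 244) and from 2.87 to 9.09 CPM in ILC3 (median 6.15), a log2 fold change of -5.53 ± 0.23 (adjusted p = 9.65e-08).

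Ccr10, the receptor for the mucosal chemokine Ccl28 that also marks antibody-secreting cells, was the third of these. Ccr10 (Entrez 12777; chromosome 11, 101172998 to 101175443) ran from 94.7 to 452 CPM in ILC2 (median 249) and from 1.43 to 11.2 CPM in ILC3 (median 5.51), a log2 fold change of -5.52 ± 0.39 (adjusted p = 1.85e-06). Within ILC2 it spread more widely than Ccr4 or Ccr8, with 2 libraries (ZT10 replicate 2 at 94.7 CPM and ZT23 replicate 2 at 96.6 CPM) well under the other 5. Those were also the 2 ILC2 libraries with the least plasma and B cell marker RNA, at 37224 and 18883 CPM summed, against at most 4360 CPM in ILC3. The part of plasma cells and B cells in the Ccr10 difference was not tested. Ccr9, which in plasmacytoid dendritic cells is a marker as well as the small intestine's homing receptor, ran from 449 to 599 CPM in ILC2 and from 74.9 to 212 CPM in ILC3 without overlap (log2 fold change -1.90 ± 0.22, adjusted p = 5.32e-05). Of its exon bases, 18.8% are shared with AC165425.1 on the opposite strand and 2.6% with Gm17200 on the same strand. The strand setting of the counting is not given in the sources used here. All 9 plasmacytoid dendritic cell markers, Ccr9 among them, were lower in ILC3, and their sum ran from 1648 to 3678 CPM in ILC2 and from 432 to 668 CPM in ILC3. The most specific of them, Siglech, ran from 100.3 to 401 CPM in ILC2 and from 0.756 to 4.24 CPM in ILC3. The part of those cells in the Ccr9 difference was not tested. Ccr2, which draws cells towards the monocyte chemokine Ccl2, was higher in ILC2 by less (134 to 209 CPM against 58.8 to 135 CPM, log2 fold change -0.81 ± 0.15, adjusted p = 0.00196), and the libraries overlapped at 1 point, ILC3 ZT16 replicate 1.

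On the ILC3 side, Ccr6 and Cxcr5 stood apart from the rest. Ccr6, the receptor for Ccl20 that places lymphoid tissue inducer-like ILC3 in cryptopatches and isolated follicles, is the better known of the pair. Ccr6 (Entrez 12458; chromosome 17, 8236041 to 8258519) ran from 57.6 to 131 CPM in ILC3 (median 104) and from 0.51 to 3.92 CPM in ILC2 (median 2.80), a log2 fold change of 5.29 ± 0.26 (adjusted p = 1.68e-07). Cxcr5, the follicular receptor for Cxcl13, had a like level and a like gap. Cxcr5 (Entrez 12145; chromosome 9, 44511787 to 44526444) ran from 75.2 to 192 CPM in ILC3 (median 134) and from 1.09 to 10.1 CPM in ILC2 (median 3.90), a log2 fold change of 4.64 ± 0.46 (adjusted p = 1.65e-05). For both genes every ILC3 library was above every ILC2 library. Per kilobase of gene length their ILC3 means were 48.0 CPM per kilobase for Ccr6 and 48.4 for Cxcr5.

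The other 6 receptors higher in ILC3 differed by less and, except Ccr7, their libraries overlapped. Ccr7, which brings cells to lymph nodes along Ccl19 and Ccl21, ran from 46.7 to 98.8 CPM in ILC2 and from 123 to 606 CPM in ILC3 (log2 fold change 1.68 ± 0.30, adjusted p = 0.00116). Ccr1, an inflammatory receptor of myeloid cells, ran from 19.4 to 147 CPM in ILC2 and from 127 to 393 CPM in ILC3 (2.06 ± 0.34, adjusted p = 0.000761). For both genes ILC3 ZT4 replicate 1 was the highest library, and that library also had the highest summed macrophage and dendritic cell markers, 4979 CPM against 2009 to 2775 CPM in the other 7 ILC3 libraries. Without it the Ccr1 and Ccr7 calls over all times held.

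Xcr1, which on dendritic cells marks the cross-presenting type, ran from 7.15 to 54.3 CPM in ILC3 and from 2.58 to 9.78 CPM in ILC2 (2.43 ± 0.39, adjusted p = 0.00058). Ccr3, the eotaxin receptor of eosinophils, mast cells and basophils, was low in both, at 0 to 2.76 CPM in ILC2 and 2.30 to 10.6 CPM in ILC3 (2.44 ± 0.68, adjusted p = 0.0183). It had 97 counts in all over the ILC2 libraries and 0 in ILC2 ZT10 replicate 1, where 3 counts would have been 0.746 CPM. Of the macrophage and dendritic cell markers 7 of 12 were higher in ILC3 and none lower (summed 538 to 2351 CPM in ILC2 and 2009 to 4979 CPM in ILC3). All 10 mast cell and basophil markers were higher in ILC3 (14.8 to 440 CPM against 742 to 2976 CPM), with Cma1 at 0 in all ILC2 libraries. Of the 7 eosinophil markers tested 4 were higher and 2 lower (34.0 to 496 CPM against 24.9 to 62.7 CPM). The part of these cells in the Ccr1, Ccr3, Ccr7 and Xcr1 differences, and in that of Cx3cr1 below, was not tested.

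Cx3cr1, the receptor for membrane-bound fractalkine, ran from 5.16 to 27.5 CPM in ILC2 and from 23.8 to 58.5 CPM in ILC3 (1.34 ± 0.33, adjusted p = 0.01). Cxcr4, which holds cells near stromal Cxcl12, stood 9th of 31 in level per kilobase in ILC2 and 4th in ILC3, at 192 to 293 CPM in ILC2 and 235 to 420 CPM in ILC3 (0.48 ± 0.12, adjusted p = 0.0104). Its call was lost without the 3 libraries of lowest depth (adjusted p = 0.0857). The 2 receptors that did not pass the test were Cxcr6 and Cxcr3. Cxcr6, a receptor for Cxcl16 shared by tissue-resident lymphocytes, averaged 553 ± 195 CPM (SD, n = 7) in ILC2 and 390 ± 93.1 CPM (n = 8) in ILC3 (-0.45 ± 0.23, adjusted p = 0.168). Cxcr3, the receptor of type 1 lymphocytes, averaged 31.9 ± 7.43 CPM and 37.2 ± 11.6 CPM (0.25 ± 0.21, adjusted p = 0.433).

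**Figure D2:**
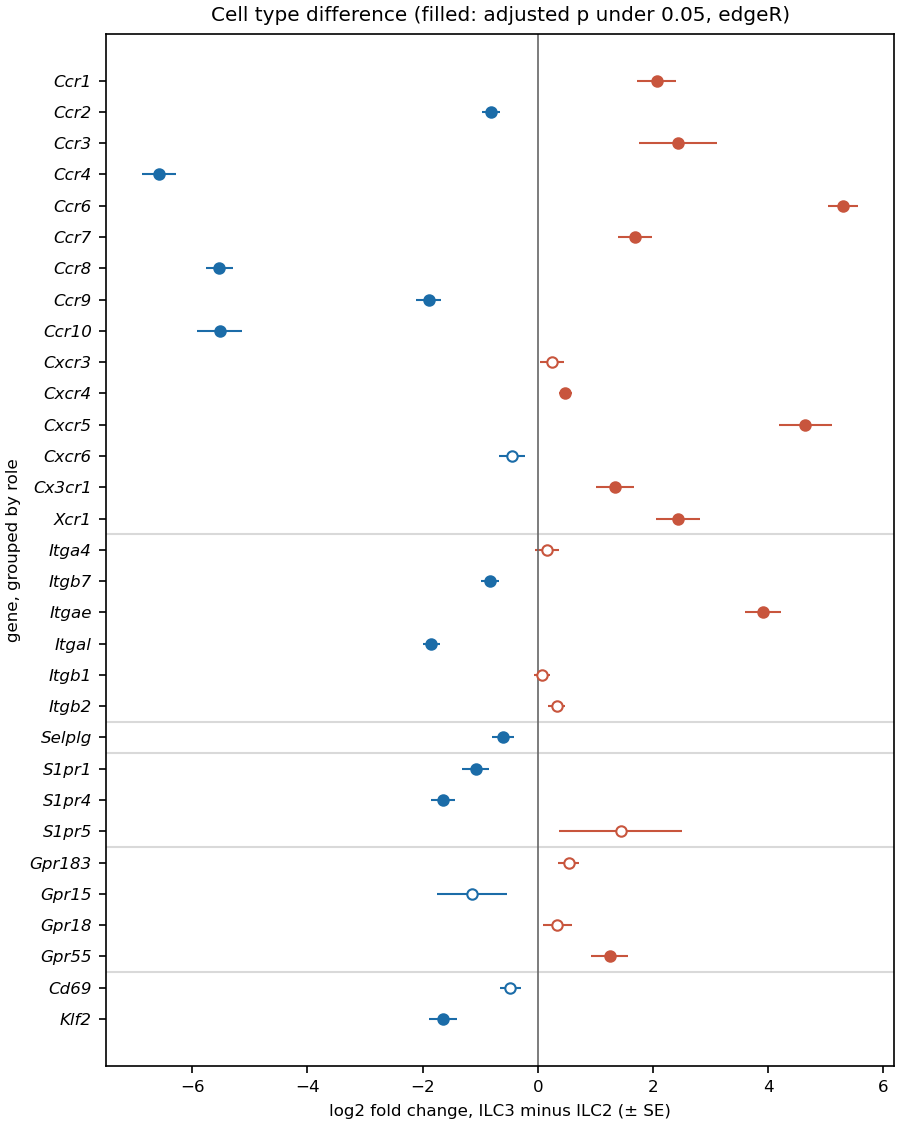
Log2 fold change of each of the 31 genes, ILC3 minus ILC2 (x axis, bars are ± SE), ordered by role, with filled points at adjusted p under 0.05 (edgeR). The points run from -6.57 for Ccr4 to 5.29 for Ccr6, and 21 of 31 are filled.

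The gut integrins parted by chain. Itgae, whose product pairs with that of Itgb7 to bind E-cadherin on epithelium, was the only integrin chain of the 6 higher in ILC3. Itgae (Entrez 16407; chromosome 11, 73090505 to 73147449) ran from 31.5 to 71.5 CPM in ILC2 (median 43.8) and from 346 to 911 CPM in ILC3 (median 807), a log2 fold change of 3.90 ± 0.31 (adjusted p = 3.57e-06). Its ILC3 libraries lay between 619 and 911 CPM except ZT23 replicate 2 at 346 CPM, which was still above every ILC2 library. The partner chain Itgb7 went the other way and by less, at 1170 to 1610 CPM in ILC2 and 426 to 912 CPM in ILC3 without overlap (-0.83 ± 0.15, adjusted p = 0.00164). The second partner of Itgb7, Itga4, which completes the venule-binding pair, did not pass the test, at 370 ± 88.8 CPM (n = 7) in ILC2 and 428 ± 204 CPM (n = 8) in ILC3 (0.16 ± 0.21, adjusted p = 0.623). Some of its exon bases (8.0%) are shared with Cerkl on the opposite strand, and the strand setting of the counting is not given in the sources used here.

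Itgal, which with Itgb2 forms the leukocyte integrin that binds ICAM adhesion molecules, was lower in ILC3. Itgal (Entrez 16408; chromosome 7, 127296139 to 127335137) ran from 754 to 1025 CPM in ILC2 (median 894) and from 134 to 352 CPM in ILC3 (median 251), a log2 fold change of -1.85 ± 0.15 (adjusted p = 5.14e-06). No library overlapped. Its partner Itgb2 averaged 371 ± 37.8 CPM (n = 7) in ILC2 and 467 ± 116 CPM (n = 8) in ILC3 and did not pass (0.33 ± 0.15, adjusted p = 0.122), though it did with library size as the only scaling (adjusted p = 0.0234) and in DESeq2 (adjusted p = 0.0463). Itgb1, the beta chain of most matrix-binding integrins, averaged 228 ± 44.3 CPM and 231 ± 42.9 CPM (0.07 ± 0.14, adjusted p = 0.758). T cell markers, a lineage in which Itgae and Itgal are also expressed, were 4 higher and 6 lower of 10 in ILC3, with a sum of 895 to 1412 CPM in ILC2 and 257 to 2692 CPM in ILC3. Of the 9 NK and type 1 innate markers tested 5 were higher and 2 lower (156 to 487 CPM against 623 to 4135 CPM), with Klra8 at 0 in all ILC2 libraries. The part of those cells in the Itgae and Itgal differences was not tested. Selplg, which carries the ligand of P-selectin, averaged 225 ± 20.6 CPM in ILC2 and 152 ± 39.8 CPM in ILC3 (-0.60 ± 0.19, adjusted p = 0.0335). The call was lost with library size as the only scaling (adjusted p = 0.101), without the 3 libraries of lowest depth (0.0671), and without any 1 of 7 libraries, with adjusted p between 0.0536 and 0.0664 (ILC2 ZT4 replicate 2, ZT10 replicate 2, ZT16 and ZT23 replicate 1, and ILC3 ZT4 replicate 2, ZT10 replicate 1 and ZT16 replicate 2).

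The sphingosine 1-phosphate receptors that passed were lower in ILC3. S1pr4, a lymphocyte sphingosine 1-phosphate receptor, ran from 42.4 to 55.3 CPM in ILC2 and from 8.0 to 23.1 CPM in ILC3 without overlap (-1.64 ± 0.21, adjusted p = 9.76e-05). S1pr1, the main exit receptor, ran from 18.6 to 54.3 CPM in ILC2 and from 11.3 to 22.3 CPM in ILC3 (-1.08 ± 0.24, adjusted p = 0.00506), with 1 ILC2 library, ZT4 replicate 2, inside the ILC3 range. S1pr5, known from NK cell exit, was near the limit of detection, with 19 counts over all ILC2 libraries and 55 over all ILC3 libraries. It had 0 counts in 3 ILC2 libraries, where 3 counts would have been 0.244 to 0.51 CPM, and no direction can be read at this depth (1.44 ± 1.07, adjusted p = 0.356).

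Klf2, a transcription factor that switches on S1pr1, was lower in ILC3. Klf2 (Entrez 16598; chromosome 8, 72319062 to 72321654) ran from 176 to 678 CPM in ILC2 (median 285) and from 62.1 to 163 CPM in ILC3 (median 111), without overlap (-1.65 ± 0.25, adjusted p = 0.000369). Cd69, which removes the S1pr1 product from the cell surface, was the most abundant of the 31 genes per kilobase in ILC3 and the second in ILC2, and averaged 744 ± 150 CPM (n = 7) in ILC2 and 542 ± 142 CPM (n = 8) in ILC3 (-0.48 ± 0.19, adjusted p = 0.079). It passed in DESeq2 (adjusted p = 0.0326) and without ILC2 ZT23 replicate 2 (0.0398), ILC3 ZT4 replicate 2 (0.0477) or ILC3 ZT23 replicate 1 (0.0214).

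Of the 4 remaining receptors, Gpr55, a receptor for lysophosphatidylinositol, was higher in ILC3, at 21.3 to 94.7 CPM in ILC2 and 73.1 to 187 CPM in ILC3 (1.25 ± 0.33, adjusted p = 0.0134). Without the 3 libraries of lowest depth its adjusted p was 0.0527. Gpr183, the oxysterol receptor that moves ILC3 towards lymphoid tissue of the gut, averaged 253 ± 13.5 CPM (n = 7) in ILC2 and 374 ± 137 CPM (n = 8) in ILC3, next to the threshold (0.54 ± 0.19, adjusted p = 0.0513). The ILC2 values stayed between 237 and 269 CPM, whereas those of ILC3 ran from 250.3 to 654 CPM. The gene passed under DESeq2's size factors in edgeR (adjusted p = 0.0447), with library size as the only scaling (0.0128), in DESeq2 (0.0131), with no filter on low counts (0.0318) and without ILC3 ZT4 replicate 2 (0.00151). Gpr18, a receptor of intraepithelial lymphocytes, averaged 45.5 ± 12.7 CPM and 57.0 ± 20.4 CPM (0.34 ± 0.25, adjusted p = 0.344). Gpr15, the homing receptor of the large intestine, was low, at 0.552 to 12.4 CPM in ILC2 and 0.739 to 1.95 CPM in ILC3 (-1.14 ± 0.61, adjusted p = 0.191), passed without ILC2 ZT23 replicate 2 (0.0465), and shares 12.5% of its exon bases with Cpox on the opposite strand.

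Per kilobase of gene length, both cell types kept the same 3 genes on top. In ILC2 the order was Itgb7 at 502 CPM per kilobase, Cd69 at 459, Cxcr6 at 292, Ccr8 at 233 and Klf2 at 198. In ILC3 it was Cd69 at 335, Itgb7 at 284, Cxcr6 at 206, Cxcr4 at 181 and Itgb2 at 163. Ccr8 stood 4th of 31 in ILC2 and 26th in ILC3, and Itgae 24th in ILC2 and 6th in ILC3.

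Many of the 31 genes lie close together in the genome. Of the 12 pairs within 200 kb of each other, 5 had fitted log2 fold changes of the same sign and 7 of opposite sign, whether or not both genes passed the test. Chromosome 9 holds 11 of them, and 6 (Ccr9, Cxcr6, Xcr1, Ccr1, Ccr3 and Ccr2) lie within 341.9 kb. Along that stretch the outer genes Ccr9 (-1.90) and Ccr2 (-0.81) were higher in ILC2, the inner Xcr1 (2.43), Ccr1 (2.06) and Ccr3 (2.44) were higher in ILC3, and Cxcr6 (-0.45) did not pass the test. The pair with the sharpest contrast was Cx3cr1 and Ccr8, which lie 23.8 kb apart, with log2 fold changes of 1.34 and -5.53. Gpr183 and Gpr18 lie 36.4 kb apart inside the gene Ubac2 on the opposite strand, with no exon bases shared.

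**Figure D3:**
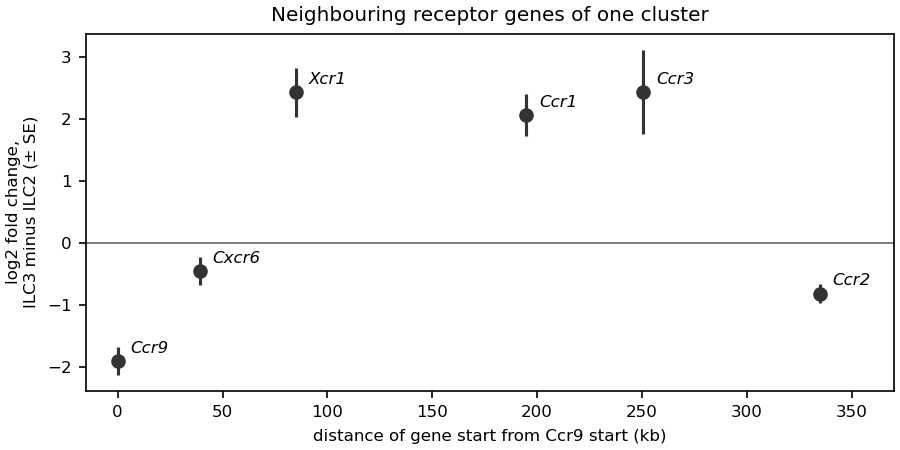
Log2 fold change, ILC3 minus ILC2 (y axis, bars are ± SE), of 6 receptor genes of chromosome 9 by distance of the gene start from that of Ccr9 in kb (x axis). Xcr1, Ccr1 and Ccr3 lie above 0, between Ccr9 and Cxcr6 on one side and Ccr2 on the other, which lie below 0.

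The cell type difference was then tested at each time by itself. At ZT4, 12 of the 31 genes passed (38.7%), against 7.21% of all genes, with 5 higher in ILC3 (against 4.51%) and 7 lower (against 2.70%). There were 9 at ZT10 (29.0%, against 6.31%), with 4 higher (against 3.77%) and 5 lower (against 2.54%). ZT16 had 7 (22.6%, against 3.29%), with 3 higher (against 1.56%) and 4 lower (against 1.72%). ZT23 had 12 (38.7%, against 6.84%), with 3 higher (against 3.04%) and 9 lower (against 3.79%). The ZT16 test has a single ILC2 library. Leaving out 1 library took the counts down to 7 at ZT4 (without ILC3 ZT4 replicate 1), 6 at ZT10 (without ILC2 ZT10 replicate 2 or ILC3 ZT10 replicate 2), 3 at ZT16 (without ILC3 ZT16 replicate 2) and 7 at ZT23 (without ILC3 ZT23 replicate 2). The same 7 genes passed at every time: Ccr4, Ccr8, Ccr10 and Itgal, lower in ILC3, and Ccr6, Cxcr5 and Itgae, higher in ILC3. Their log2 fold changes ranged over the 4 times from -7.25 to -5.45 for Ccr4, from -5.96 to -4.77 for Ccr8, from -6.29 to -4.96 for Ccr10 and from -2.42 to -1.62 for Itgal. Those of Ccr6 ran from 4.50 to 6.38, of Cxcr5 from 4.10 to 5.35 and of Itgae from 3.56 to 4.33. Ccr9 passed at 3 times, Xcr1, Klf2 and S1pr4 at 2, and Ccr2, Ccr7 and Itgb7 at 1, and 17 genes passed at no single time. The direction was the same at all 4 times for 26 of the 31. For these counts over the 4 times no share of all genes was computed, so they do not set the 31 apart from other genes.

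The next question was whether any homing gene changed over the day, which was tested within each cell type and so within a batch. No gene passed after adjustment, neither among the 31 nor among all 15339 tested (0%), over the 4 times in ILC2, over the 4 times in ILC3 or in the interaction of cell type and time (edgeR). In DESeq2 24 genes passed over time in ILC2, 31 in ILC3 and 2 in the interaction, none of them among the 31. At an unadjusted p under 0.05 edgeR had 1 of the 31 in ILC2 (3.23%, against 3.36% of all genes), 4 in ILC3 (12.9%, against 4.36%) and 2 in the interaction (6.45%, against 2.00%). The 4 pairs of times 12 or 13 hours apart also gave 0 genes after adjustment. At an unadjusted p under 0.05, ZT16 minus ZT4 had 2 of the 31 in ILC2 (Ccr1 and Ccr6, against 4.72% of all genes) and 3 in ILC3 (Ccr4, Ccr7 and Cxcr4, against 3.33%). ZT23 minus ZT10 had 0 in ILC2 (against 2.90%) and 3 in ILC3 (Ccr10, Itga4 and Xcr1, against 8.17%). In DESeq2 those 4 pairs gave 4, 2, 5 and 24 genes in the same order, none of them among the 31.

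The values of the genes with the smallest unadjusted p show what this design could and could not separate. Xcr1 in ILC3 was 54.3 and 23.3 CPM at ZT4, 45.4 and 47.0 CPM at ZT10, 35.1 and 38.3 CPM at ZT16, and 7.15 and 12.8 CPM at ZT23. Both ZT23 libraries were below the other 6, and ZT23 minus ZT10 was -2.21 ± 0.67 on the log2 scale (unadjusted p = 0.00617, adjusted p = 0.597). In ILC2, Xcr1 stayed between 2.58 and 9.78 CPM at all times, and its interaction had an unadjusted p of 0.0373 (adjusted p = 1). The cell type difference of Xcr1 was thus 0.40 ± 0.65 at ZT23 (adjusted p = 0.753) and 3.02 ± 0.71 at ZT10 (adjusted p = 0.0257).

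Itga4 in ILC3 was 850 and 394 CPM at ZT4, 575 and 373 CPM at ZT10, 357 and 414 CPM at ZT16, and 282 and 182 CPM at ZT23. The ZT23 libraries were again the 2 lowest, and the F-test over the 4 times had an unadjusted p of 0.0238 (adjusted p = 0.965). ILC3 ZT23 replicate 2 was also the lowest ILC3 library for Itgb7, Itgae, Itgal, Itgb2 and Selplg, and it had the highest summed epithelial markers of all 15, 4770 CPM against 75.8 to 1827 CPM. The part of epithelial RNA in these low values was not tested.

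Ccr4 in ILC3 was 2.23 and 1.48 CPM at ZT4, 3.46 and 3.96 CPM at ZT10, 7.42 and 5.85 CPM at ZT16, and 3.44 and 1.43 CPM at ZT23. Both ZT16 libraries were above the other 6, at levels still under those of all ILC2 libraries (F-test unadjusted p = 0.0149, adjusted p = 0.965). Ccr2 in ILC3 had its 2 highest libraries at ZT16 too, at 135 and 134 CPM, against 58.8 to 96.3 CPM at the other times (F-test unadjusted p = 0.0357, adjusted p = 0.965). In ILC2 the one gene was Ccr6, at 0.51 and 1.38 CPM at ZT4, 2.24 and 2.80 CPM at ZT10, 3.92 CPM at ZT16, and 3.86 and 3.76 CPM at ZT23. The F-test gave an unadjusted p of 0.00887 (adjusted p = 1), on a total of 231 counts over the 7 libraries. Klf2 in ILC2 differed as much between replicates as between times, at 237 and 409 CPM at ZT4, 285 and 176 CPM at ZT10, 498 CPM at ZT16, and 678 and 238 CPM at ZT23.

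**Figure D4:**
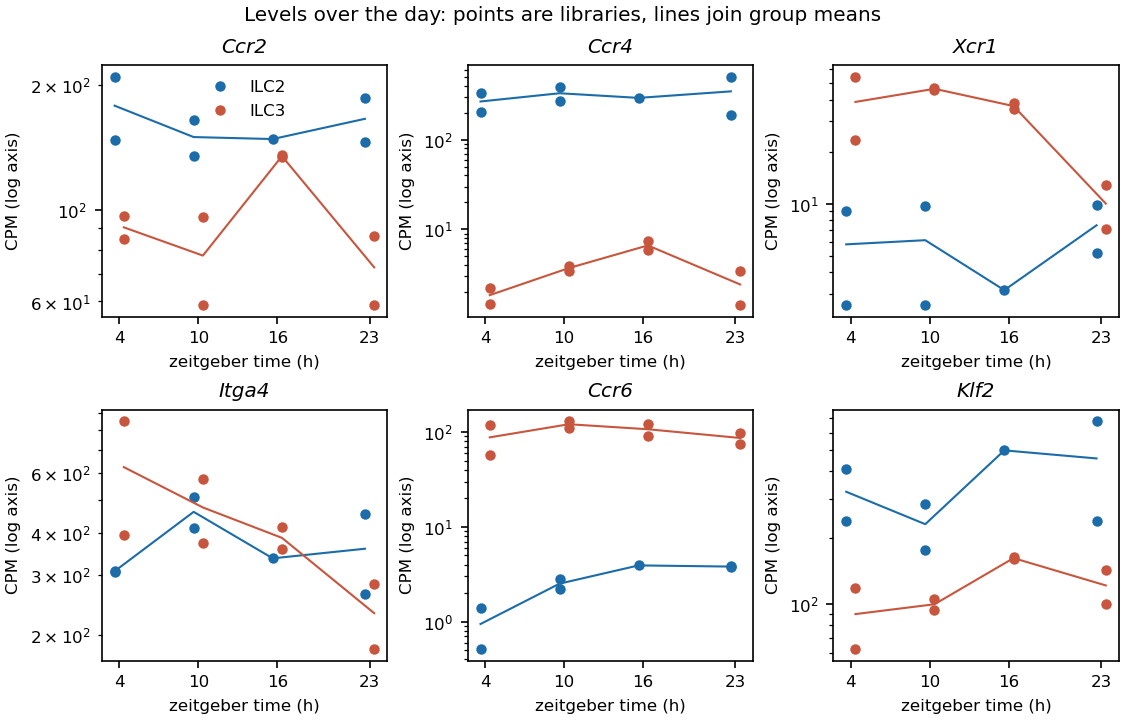
CPM (y axis, log scale) of 6 homing genes by zeitgeber time in hours (x axis). Points are libraries, lines join group means, and blue is ILC2 and red ILC3. The ILC3 points of Xcr1 are lowest at ZT23 (7.15 and 12.8 CPM) and those of Ccr4 highest at ZT16 (7.42 and 5.85 CPM).

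Within ILC2, each homing gene was compared with the summed plasma and B cell markers. Of the 10 markers in that list 8 were lower in ILC3, and none was at 0 throughout. Most of the sum was Jchain, at 188346 of 192600 CPM in ZT23 replicate 1 and 18103 of 18883 CPM in ZT23 replicate 2. The relations below are thus mainly relations to that gene. Ccr10 was highest, at 452 CPM, in the library with the most marker RNA (ZT23 replicate 1, 192600 CPM summed) and near its lowest, at 96.6 CPM, in the one with the least (ZT23 replicate 2, 18883 CPM). Over the 7 ILC2 libraries, Pearson's r between log2 levels was 0.932 (exact permutation p = 0.000794, adjusted p = 0.0246 over 62 relations) and Spearman's rho was 0.929 (exact permutation p = 0.00675, adjusted p = 0.139). Without the 2 libraries farthest from the median marker sum r was 0.869.
Gpr55 (r = 0.941, exact permutation p = 0.00437, adjusted p = 0.0738; rho = 0.857, p = 0.0238, adjusted p = 0.228) ran the same way, and r was 0.712 without the 2 farthest libraries. Gpr15 (r = 0.893, exact permutation p = 0.00814, adjusted p = 0.0769; rho = 0.893, p = 0.0123, adjusted p = 0.191) was a further one, with r at 0.738 without them. Klf2 (r = 0.835, exact permutation p = 0.0179, adjusted p = 0.11; rho = 0.821, p = 0.0341, adjusted p = 0.228) did so too, with r at 0.886 without them. Ccr4 ran the opposite way (r = -0.911, exact permutation p = 0.00595, adjusted p = 0.0738; rho = -0.821, p = 0.0341, adjusted p = 0.228), with r at -0.679 without them. S1pr1 ran that way too (r = -0.827, exact permutation p = 0.0222, adjusted p = 0.11; rho = -0.786, p = 0.048, adjusted p = 0.248). Itga4 (r = -0.826) did so as well, and Cd69 (r = 0.811) ran with the sum, both with an adjusted permutation p of 0.11. Without the 2 farthest libraries r was -0.679 for S1pr1, -0.741 for Itga4 and 0.363 for Cd69, so that the Cd69 relation rests on them. Of the ILC2 relations only that of Ccr10 passed the adjustment, and by Pearson's r alone. The permutations, here and in ILC3, exchanged libraries freely across times and possible pools. Libraries of the same time may not be independent, so these p-values may be too small. All these values share a library total, of which Jchain by itself took 1.85% to 15.7% in ILC2. The part of plasma cells and B cells in these relations was not tested.

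In ILC3 each homing gene was compared with the summed NK and type 1 innate markers. Most of that sum (623 to 4135 CPM) came from Gzma and Gzmb, which averaged 1660 and 674 CPM in ILC3. Summed T cell markers were likewise lowest in ZT4 replicate 1 (257 CPM) and highest in ZT23 replicate 1 (2692 CPM). A relation to T cell RNA was not tested apart from the relations given here. Gpr18 ran from 28.5 CPM in the library with the lowest sum (ZT4 replicate 1) to 84.1 CPM in that with the highest (ZT23 replicate 1). Over the 8 ILC3 libraries r was 0.922 (exact permutation p = 0.000496, adjusted p = 0.0246), rho was 0.905 (exact permutation p = 0.00456, adjusted p = 0.139), and r was 0.889 without the 2 farthest libraries. Ccr7 ran the opposite way (r = -0.919, exact permutation p = 0.00575, adjusted p = 0.0738; rho = -0.762, p = 0.0368, adjusted p = 0.228), and r came to -0.476 without those libraries, so that the relation rests on them. For Itgae the rank order followed the sum more closely than the level did (rho = 0.929, exact permutation p = 0.00223, adjusted p = 0.138; r = 0.518, p = 0.169, adjusted p = 0.361), and r was 0.674 without the 2 farthest libraries. Of the ILC3 relations only that of Gpr18 passed the adjustment, and by Pearson's r alone. The part of other cells in these relations was not tested.

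**Figure D5:**
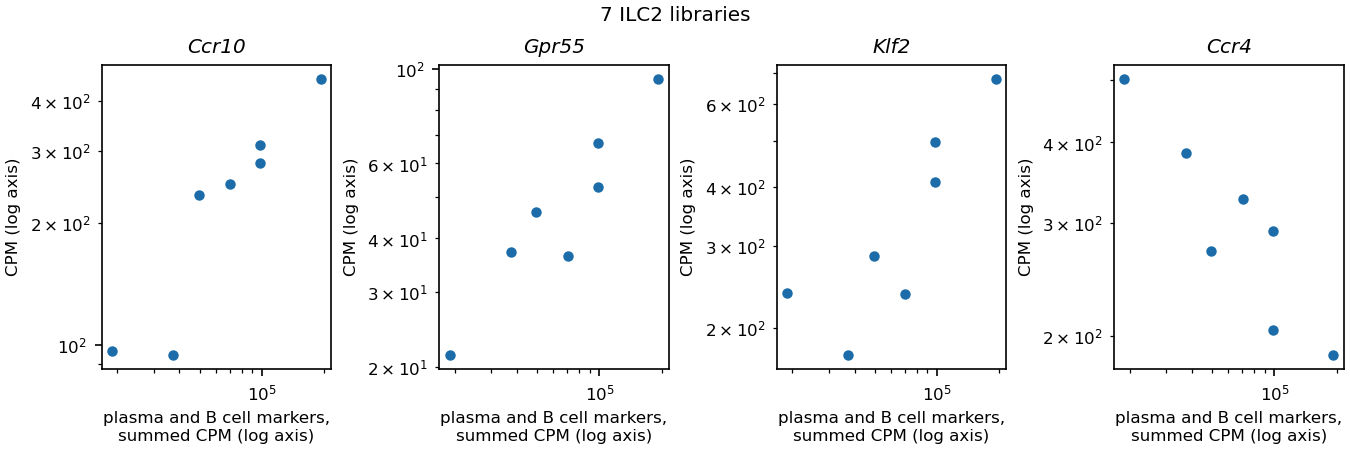
CPM of Ccr10, Gpr55, Klf2 and Ccr4 (y axes, log scale) against the summed CPM of plasma and B cell markers (x axes, log scale). Points are the 7 ILC2 libraries. Ccr10 is 96.6 CPM in the library with the least marker RNA and 452 CPM in that with the most, and Ccr4 is 502 and 187 CPM in the same 2 libraries.

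Ligands and partners of the 31 genes were taken from 6 further lists, and their counts stand beside 15.1% of all genes higher in ILC3, 12% lower and a median log2 fold change of 0.11. Of 27 chemokine ligands tested 8 were higher in ILC3 and 2 lower (median log2 fold change 0.96). Ccl1, the ligand of the Ccr8 product, was lower in ILC3 with its receptor, at 25.8 ± 8.73 CPM in ILC2 and 0.673 ± 0.26 CPM in ILC3 (-5.30 ± 0.28, adjusted p = 2.57e-07). Ccl22, a ligand of the Ccr4 product and also a marker of dendritic cells, was higher in the cells low in Ccr4, at 9.11 ± 4.39 CPM in ILC2 and 124 ± 89.2 CPM in ILC3 (3.85 ± 0.41, adjusted p = 2.70e-05). Cx3cl1, the Cx3cr1 ligand, was higher in ILC3 with its receptor (16.7 ± 3.96 CPM against 257 ± 111 CPM). Cxcl10, a Cxcr3 ligand, was lower in ILC3 (240.0 ± 135 CPM against 55.8 ± 9.16 CPM).

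Of 20 other integrin chains 10 were higher in ILC3 and 1 lower (median 1.55). The lower one was Itgb3, a vitronectin receptor chain, at 338 ± 73.6 CPM in ILC2 and 90.5 ± 21.2 CPM in ILC3 (-1.93 ± 0.20, adjusted p = 1.93e-05). Itgax, which pairs with Itgb2 and is also a dendritic cell marker, Itgad, another Itgb2 partner, and Itga1, a collagen receptor chain of resident lymphocytes, were higher in ILC3 (log2 fold changes 1.77, 3.75 and 2.69). Of 23 other chemoattractant receptors 5 were higher and 5 lower. S1pr3 was higher in ILC3 (0.794 ± 0.628 CPM against 18.9 ± 4.43 CPM), opposite in direction to S1pr1 and S1pr4, and P2ry14 and Ltb4r1 were lower (-1.95 and -1.29). Of 24 selectins, adhesion ligands and glycosyltransferases 4 were higher and 6 lower, with Cd34, F11r and Crtam among the higher (3.43, 2.02 and 4.04). Of 37 genes of receptor signalling and integrin activation 6 were higher and 9 lower, among them the receptor kinase gene Grk3 (1.81) and Elmo1 (0.94) higher, and Skap1 (-1.51) and Rasgrp2 (-1.38), which act in integrin activation, lower. Of 28 genes of sphingosine and oxysterol metabolism and egress 5 were higher and 6 lower. The sphingosine 1-phosphate exporter gene Spns2 (3.37), the retinoic acid synthesis gene Aldh1a2 (3.95) and the lipid phosphatase gene Plpp3 (2.81) were higher in ILC3, and Prdm1 (-2.00), a residency and plasma cell factor, was lower. No gene of the 6 lists passed over time in either cell type or in the interaction.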

How the data were processed

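PolyA RNA of sorted ILC2 and ILC3 was sequenced in 15 libraries made with a TruSeq kit from 100 ng of RNA, per the labels' protocols, which do not give the antibodies or gates. The authors deposited whole-number read counts per gene under Entrez identifiers with gene lengths, not normalized, and per the submitters' processing notes reads were counted with featureCounts on mm10. The aligner, the strand setting and the handling of reads that map to several places are not given in the sources used here.

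Of 22797 genes 22718 were named through the RefSeq table of GRCm38.p6. Groups follow the labels for cell type and time. The 31 members and all gene lists were chosen with earlier results of these data known. Genes were kept by filterByExpr (minimum count 10), which left 15339. After TMM scaling, edgeR 4.0.16 in R 4.3.3 fitted 8 group means to the 15 libraries, so that ILC2 ZT16 with 1 library shares the spread of the others (7 residual degrees of freedom, median prior 5.1, common biological coefficient of variation 0.425). Benjamini-Hochberg adjustment ran over all genes tested, and a gene is called at adjusted p under 0.05. Log2 fold changes used a prior count of 0.125, and a standard error is the fold change divided by the root of F. Tests were ILC3 minus ILC2 over all times and at each time, F-tests over time and for the interaction, and 4 pairs of times. The precision of a low gene is set by depth: floors are 3 counts and cover counting error only.

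Counts of the 2 libraries of a group differed by more than sampling noise (chi-square 22.0 to 229 per degree of freedom). Marker sums were related to members as log2 of CPM plus 0.5 over libraries of 1 cell type by exact permutation, two-sided, in 62 relations. All 31 members are accounted for, and of each other list up to 4 genes with the smallest p were named; some genes that this rule chooses are not reported here. Words in promoters were searched on both strands. Alternatives were DESeq2 1.42.0, other scalings, no filter, a replicate block, Jchain left out, each library left out and, chosen after seeing the data, the pair of libraries with the most Jchain left out (ILC2 ZT23 replicate 1 and ILC3 ZT23 replicate 2) and the 3 libraries of lowest depth left out (ILC2 ZT4 replicate 1, ILC2 ZT10 replicate 1 and ILC3 ZT4 replicate 1).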

Additional observations from a re-analysis of the deposited data

Results flagged for a closer look

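Over the 7 ILC2 or 8 ILC3 libraries, 61 sets of values of a homing gene were searched for 1 library far from the others (Dixon's test at 95%), and 8 were found; chance alone gives about 1 in 20. That rate holds for independent sets of normally distributed values. The sets here hold unlogged CPM, share libraries with each other and span 4 times, so the 8 cannot be judged against it.

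In ILC3 ZT4 replicate 1, Ccr1 reached 393 CPM (next value 199.8), Ccr7 606 CPM (next 220.4) and Itgb1 326 CPM (next 244). This library had the lowest depth of the 8 ILC3 libraries (5903163 counts), the highest summed macrophage and dendritic cell markers (4979 CPM), and the lowest summed T cell and NK and type 1 markers of the ILC3 libraries (257 and 623 CPM). Ccr1 was also high in ILC2 ZT4 replicate 1, at 147 CPM (next 57.3), which held the highest summed macrophage and dendritic cell markers of the ILC2 libraries (2351 CPM). In ILC3 ZT23 replicate 2, Itgb7 was low at 426 CPM (next 697) and Selplg at 64.0 CPM (next 137), in the library with the most epithelial marker RNA (4770 CPM). In ILC2 ZT23 replicate 1, Gpr15 reached 12.4 CPM (next 3.61) and Gpr18 72.7 CPM (next 46.1), in the library with the most plasma and B cell marker RNA (192600 CPM). The part of these cells and of depth in the 8 values was not tested.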

How the results depend on the processing

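Over 23 alternatives, 18 of the 21 homing genes called between the cell types kept their call and direction; Cxcr4, Gpr55 and Selplg lost it under settings given above, and Itgb2, Gpr183, Gpr15 and Cd69 gained one. No called gene changed direction. The homing genes called with 1 library left out numbered 20 to 23 over all times, 7 to 14 at ZT4, 6 to 13 at ZT10, 3 to 8 at ZT16, 7 to 12 at ZT23 and 0 in every test of time. For all genes the ranges were 3270 (without ILC3 ZT16 replicate 2) to 4214, 455 (without ILC3 ZT4 replicate 1) to 1277, 345 (without ILC2 ZT10 replicate 2) to 1101, 110 (without ILC3 ZT16 replicate 2) to 627 and 528 (without ILC3 ZT23 replicate 2) to 1231 in the same order, and 0 to 3 over time in ILC3 (3 without ILC3 ZT23 replicate 1). A lone library left in a group is assumed to vary like the other groups, and without ILC2 ZT16 the cell type test at ZT16 and ZT16 minus ZT4 in ILC2 have no value.

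DESeq2 called 12 homing genes at ZT16 where edgeR called 7, and 2025, 1610, 1209 and 1988 of all genes at ZT4, ZT10, ZT16 and ZT23. It called 24 over time in ILC2, 31 in ILC3, 2 in the interaction, 4 and 2 for ZT16 minus ZT4 in ILC2 and ILC3, and 5 and 24 for ZT23 minus ZT10. Without the 3 libraries of lowest depth, 6 homing genes and 343 of all genes were called at ZT4. Without the pair of libraries with the most Jchain, 286 of all genes were called at ZT23, and 1 each over time in ILC2, in the interaction and for ZT16 minus ZT4 in ILC2. With no filter 2 and 1 genes were called for ZT23 minus ZT10 in ILC2 and ILC3. Apart from the fewer libraries in some fits, the cause was not tested. Of 62 mean levels 0 moved by over 1 SD.

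With the replicate number as a block, 10 homing genes were higher and 11 lower, as without it, and 2269 of all genes were higher and 1769 lower. Deviations from group means correlated above 0.1 in 6 of 21 pairs of groups (range -0.159 to 0.447), so not every pair of groups passed 0.1, and the numbers were not taken to pair the samples. Between ILC2 and ILC3 of the same time, the groups that could share a pool, the correlation was 0.447 at ZT4, 0.153 at ZT10 and -0.031 at ZT23. A pairing within single times was not fitted.

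Depth limits S1pr5, Ccr3 and Gpr15, the members with the fewest counts.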
